A study of Mus musculus with 32 samples.

Results

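The genes followed here are the 10 genes of the MYC, MAX and MXD network that the deposited table carries by symbol: *Myc*, *Mycn* and *Mycl*, their obligate partner *Max*, the partners that compete for MAX (*Mxd1*, *Mxd3*, *Mxd4*, *Mxi1* and *Mnt*), and *Mga*. They were taken by name from the 54233 rows of the table. The rule uses no measured value, but the members and the gene lists below were chosen with earlier results of these data known. All 10 reached 10 normalized counts in 4 or more samples and were therefore among the 15227 genes tested.

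RNA-seq was carried out on mES cells of the KH2 line, labelled strain C57BL/6, which carry the transgene TRE:GATA6-DSREd2 and turn towards primitive endoderm (PrE) once doxycycline (Dox) switches it on. There were 8 time points (0, 2, 4, 8, 16, 24, 48 and 96 h) with 4 replicates each, 32 samples in all, and every group carried the transgene. The 0 h samples had no Dox and were kept in medium with LIF and inhibitors of MEK and GSK3. The 2, 4 and 8 h samples were in serum and LIF with Dox at 1 µg/mL for 2, 4 and 8 h, and the 16, 24, 48 and 96 h samples had Dox for 12 h and then serum medium without Dox. A comparison with 0 h thus holds a change of medium as well as Dox, whose effects cannot be told apart. The system is a single line with a single-copy transgene, and no line without the transgene and no line kept in serum without Dox was analysed here.

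MYC, MYCN and MYCL are basic helix-loop-helix leucine zipper proteins that bind DNA only as dimers with MAX, mostly at the sequence CACGTG (the E-box), and raise transcription of genes for ribosome assembly, nucleotide synthesis and the cell cycle. MXD1, MXD3, MXD4, MXI1 and MNT also need MAX and bind the same sequence, but bring the SIN3 and HDAC corepressors, while MGA pairs with MAX inside a Polycomb-type repressor complex (PRC1.6) that silences germ cell genes in ES cells. In mES cells *Myc* is known to respond quickly to LIF and serum signalling, and MYC activity is low in cells kept with inhibitors of MEK and GSK3.

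Of the 10 genes, 9 had a promoter sequence in the RefSeq set used here (GRCm38.p6). *Myc* had none in it, so its promoter was not searched. The 9 genes had 11 windows of 300 bases, since *Mxi1* has 3 starts. Each window ran from 250 bases before to 50 after the start of transcription. The E-box CACGTG, which reads the same on both strands, was found in 7.15% of all 32851 such windows, and in 3 of the 11 windows of the network: those of *Mxd4*, *Mnt* and *Max*. These 3 are shown because the network's own dimers bind that sequence, with the E-box in capitals. Its first base lay 219 bases before the start in *Mxd4*, 123 in *Mnt* and 3 in *Max*, where it crosses the start, all counted from the RefSeq start.
Mxd4, chr5:34187897-34187956, minus strand: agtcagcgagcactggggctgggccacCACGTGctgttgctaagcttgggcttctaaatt
Mnt, chr11:74830774-74830833, plus strand: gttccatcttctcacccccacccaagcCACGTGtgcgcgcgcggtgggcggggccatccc
Max, chr12:76962246-76962278, minus strand: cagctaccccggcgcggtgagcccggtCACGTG
The motif of E2F factors, spelled TTTCCCGC, TTTCGCGC, TTTGCCGC or TTTGGCGC and searched on both strands, was in 2.26% of all windows. Among the 9 genes searched, which leave out *Myc*, it was only in *Mycn*, with 3 matches that begin 183, 179 and 168 bases before the start. The first lies on the plus strand of the gene and shares 4 bases with the next, which lies on the minus strand. The *Mycn* stretch is shown for that cluster, with the matches in capitals.
Mycn, chr12:12941970-12942046, minus strand: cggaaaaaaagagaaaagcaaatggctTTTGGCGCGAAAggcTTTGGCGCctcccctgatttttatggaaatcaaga
The GATA motif (GATA with A or T before it and A or G after it, on either strand) was in 29.76% of all windows and in 0 of the 11. A match describes the letters of a window and not a bound site.

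Between 3190108 and 12301732 reads per sample fell on genes, and all values below are normalized counts, that is, reads scaled by the size factors that the authors used. The row of the transgene held no reads in the 4 samples at 0 h and 510.3 to 739.5 normalized counts at 2 h. The summed level of 8 naive ES cell markers (Nanog, Sox2, Esrrb and others) was 26171 to 36362 at 0 h, as the label says, and 1808 to 2056 at 96 h, with 8 of 8 called lower at 48 h. That of 8 PrE markers (Gata4, Sox17, Pdgfra and others) was 628 to 898 at 0 h and 199306 to 275693 at 96 h, with 8 of 8 called higher at 48 h. Summed markers of other cells were 214 to 404 (trophoblast, 5 genes), 51.0 to 432 (mesoderm, 4 genes), 329 to 497 (neural, 4 genes) and 9.44 to 12.9 (fibroblast, 4 genes) at 0 h. They were 303 to 378, 36.1 to 82.9, 13.2 to 29.9 and 3.77 to 7.22 at 48 h, and the neural sum was 211 to 270.4 at 96 h. The trophoblast sum was 189 to 489 at 96 h, and of its 4 markers tested 2 were called higher and 1 lower at both 48 h and 96 h against 0 h (median log2 fold change 1.80 and 2.13). Elf5, Mesp1, Col3a1 and Postn were at or below 3 reads in every sample at 0 h and at 48 h. The part of these other cells in the results was not tested. The replicates fell into 2 sets: counts of replicates 1 and 2, or of 3 and 4, of a time point differed by a median chi-square of 1.57 per degree of freedom (16 pairs) against 10.9 between the sets (32 pairs). The labels name no batch, and values of each set are given for the results on which they bear most. The study states in general terms that replicates were performed independently, without saying for RNA-seq whether they were separate cultures, so p-values are read as measuring the spread between these samples.

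The size factors matter for small changes. With total reads in place of the authors' scaling, the median log2 fold change of all tested genes moved to -0.13 at 2 h against 0 h, -0.16 at 48 h and -0.29 at 96 h. The share of higher genes among those called went from 49.5% to 35.6% at 2 h and from 49.7% to 37.1% at 96 h against 0 h. It went from 55.5% to 69.1% at 4 h against 2 h, and from 50.1% to 36% at 96 h against 48 h (39% with upper-quartile scaling). Changes of network genes below are on the authors' scaling. Calls of *Max*, *Mxd1*, *Mxd3*, *Mxi1*, *Mnt*, *Mycn* and *Mga* that were gained or lost under another scaling are given with each gene.

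Within 2 h of Dox, 7 of the 10 genes had changed against 0 h at a false discovery rate below 0.1 (limma with Benjamini-Hochberg adjustment over all 15227 genes). *Myc*, *Mxd1*, *Mxd4* and *Mnt* were higher, 4 of 10 where 22.2% of all genes were called higher, and *Mycl*, *Mxd3* and *Mxi1* were lower, 3 of 10 where 22.6% of all genes were. *Myc* and *Mycl* also passed a 4-fold change, which 2.35% of all genes did. Later in the first day 5 genes were higher at 4 h (24.7% of all genes) and 1 lower (23.8%), and 5 higher at 8 h (26.3%) and 1 lower (22.8%). There were 3 higher at 16 h (28.0%) and 1 lower (25.3%), and 4 higher at 24 h (31.2%) and 1 lower (30.7%). The lower gene at each of these 4 time points was *Mycl*, and *Myc* and *Mxd4* were among the higher ones throughout.

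By 48 h, 9 of the 10 genes differed from 0 h: *Mycn*, *Mxd1*, *Mxd3*, *Mxd4*, *Mxi1* and *Mnt* were higher, 6 of 10 beside 36.1% of all genes, and *Mycl*, *Max* and *Mga* were lower, 3 of 10 beside 37.3%. At 96 h 6 were higher (38.0% of all genes) and 2 lower (38.5%). *Mxd4* alone passed 4-fold at both times, beside 15.6% of all genes at 48 h and 19.6% at 96 h. Against 2 h, when cells were already in serum without the inhibitors but still with Dox, 5 genes were higher at 48 h (36.9% of all genes) and 3 lower (38.3%). The genes higher were *Mycn*, *Mycl*, *Mxd3*, *Mxd4* and *Mxi1*, and those lower *Myc*, *Mxd1* and *Mga*. The map of changes against 0 h shows *Myc* high through 24 h and *Mxd4* and *Mycn* highest at 48 h.

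**Figure D1:**
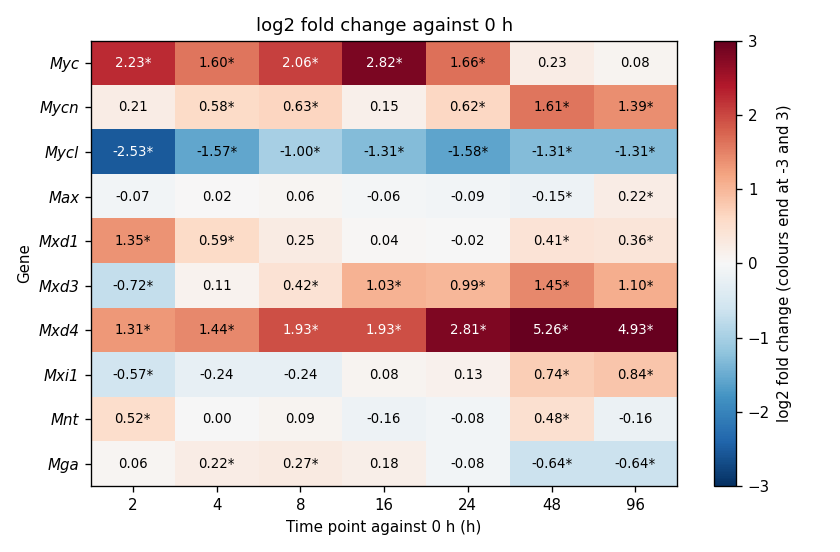
Log2 fold change of each network gene (rows) at each time point against 0 h (columns), from limma on log2(normalized count + 1) with 4 samples per time point, and colours that end at -3 and 3. An asterisk marks an adjusted p below 0.1. *Myc* stood at 2.82 at 16 h and 0.23 at 48 h, whereas *Mxd4* reached 5.26 at 48 h.

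Between neighbouring time points, most calls fell at the start and between 24 and 48 h. There were 6 at 4 h against 2 h (24.4% of all genes called in either direction), 3 at 16 h against 8 h (20.0%), 4 at 24 h against 16 h (28.2%), 8 at 48 h against 24 h (57.6%) and 2 at 96 h against 48 h (54.5%). At 8 h against 4 h limma called 0 of 10, beside 17.1% of all genes, with 2 genes (*Mycl* and *Mxd1*) at an unadjusted p below 0.05, and limma-voom on the whole reads also called 0. The early steps were seldom called when the spread came from the replicate sets: with each set averaged to a single value, calls went from 6 to 1 at 4 h against 2 h, from 3 to 0 at 16 h against 8 h and from 4 to 0 at 24 h against 16 h. The later steps kept most of theirs, with 6 of 8 at 48 h against 24 h and 2 of 2 at 96 h against 48 h. The share of all genes called with the sets averaged was not computed, so these counts do not set the network apart from other genes.

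*Myc*, whose protein drives growth and biosynthesis (chr15:61985391-61990374, plus strand, GRCm38), rose within 2 h, was highest at 16 h and at 48 h was no longer called against 0 h. Its normalized counts in replicates 1 to 4 were 163, 223, 58.0 and 52.9 at 0 h and 679, 647, 342 and 378 at 2 h. The 4 h samples had 356, 361, 241 and 317 and the 8 h samples 509, 462, 372 and 394. Those of 16 h held 716, 747, 726 and 746. Every sample from 2 to 24 h lay above every sample at 0 h, and the 16 h samples were above all others in the series. At 24 h the counts were 388, 408, 303 and 241. They then fell to 161, 179, 90.6 and 81.5 by 48 h, with 111, 134, 97.9 and 95.5 left at 96 h. The 48 h and 96 h samples overlapped those at 0 h.

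*Myc* mean levels were 4.12 times the 0 h mean at 2 h (log2 fold change 2.23, SE 0.32, adjusted p = 1.5e-06) and 5.91 times at 16 h (log2 fold change 2.82, SE 0.32, adjusted p = 1.4e-08). The lower level at 4 h than at 2 h (-0.63, SE 0.32, adjusted p = 0.18) did not pass the test, and samples of these times overlapped. It was called with limma-voom (-0.68, adjusted p = 0.052) and in each replicate set alone, but not with the sets averaged (adjusted p = 0.59). The fall from 16 to 24 h had a log2 fold change of -1.16 (SE 0.32, adjusted p = 0.0081), but was not called with the sets averaged (adjusted p = 0.22). That from 24 to 48 h had one of -1.43 (SE 0.32, adjusted p = 0.00039) and was called with the sets averaged too (adjusted p = 0.042). At 48 h against 0 h the difference was 0.23 with a 95% interval from -0.42 to 0.88, and against 2 h *Myc* was lower by a log2 fold change of -2.01 (SE 0.32, adjusted p = 1.9e-06). In bulk RNA a lower level in all cells and fewer cells with the transcript cannot be told apart.

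The starting level of *Myc* differed between the replicate sets more than at any other time. At 0 h replicates 1 and 2 averaged 193 and replicates 3 and 4 averaged 55.5, a ratio of 3.48, which was 1.84 at 2 h and 0.994 at 16 h. The 2 h rise was therefore 3.44-fold in the first set and 6.49-fold in the other, and the 16 h rise 3.79-fold and 13.3-fold. At 48 h *Myc* stood at 0.882 and 1.55 times the 0 h level in the sets (log2 fold change -0.16, adjusted p = 0.22, and 0.62, adjusted p = 8.9e-05). At 96 h it stood at 0.635 times the 0 h level in replicates 1 and 2 and at 1.74 times in replicates 3 and 4, so its direction against 0 h at both times depended on the set. Without replicate 2 at 0 h, the 48 h difference became 0.60 with an adjusted p of 0.078.

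The 2 h samples were taken 2 h and the 16 h samples 4 h after a stated change of medium, as were the 4 h samples. *Myc* averaged 319 ± 55.2 (SD, n = 4) at 4 h after the first change and 734 ± 15.2 at 4 h after the second, and the part of the change of medium in the 16 h level was not tested. The plot of the 3 MYC genes by sample shows the high *Myc* levels at 2 h and 16 h and the distance between the sets at 0 h.

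**Figure D2:**
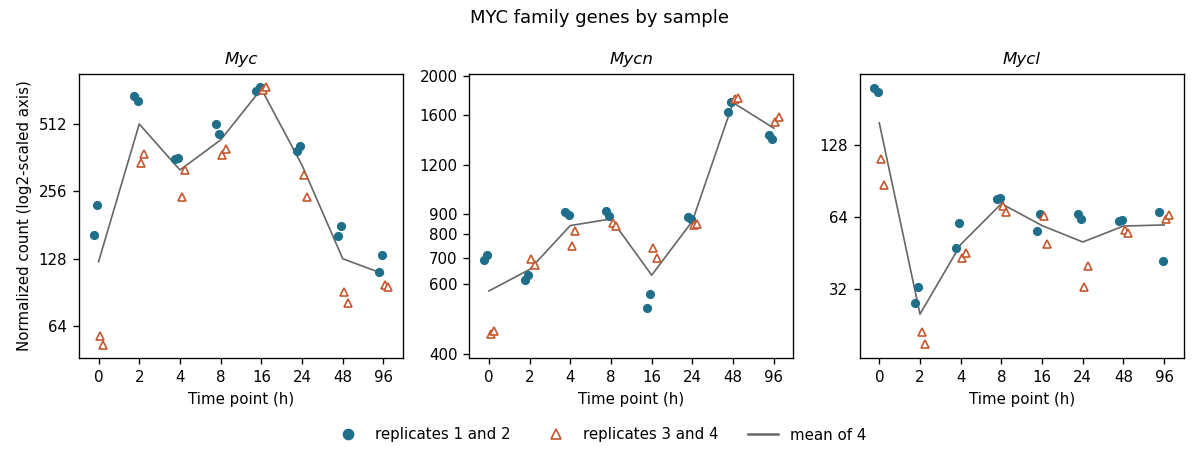
Normalized count (log2-scaled axis) of *Myc*, *Mycn* and *Mycl* in each of the 32 samples by time point, with filled circles for replicates 1 and 2, open triangles for replicates 3 and 4, and a line through the mean of 4. *Myc* is highest at 16 h (716 to 747), *Mycn* at 48 h (1624 to 1767), and *Mycl* at 0 h (86.9 to 221).

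*Mycn*, the paralogue expressed in early embryos and neural progenitors (chr12:12936093-12941914, minus strand, with the E2F cluster shown above), moved later. Normalized counts were 691, 710.0, 449 and 457 at 0 h, 615 to 693 at 2 h and 747 to 915 at 4 and 8 h. At 16 h they were 524, 565, 739 and 699.9, below every sample at 8 h, and at 24 h 847 to 888. They reached 1624, 1726, 1753 and 1767 at 48 h and 1421, 1390.4, 1531 and 1581 at 96 h, above every sample of all earlier time points, and no 96 h sample reached the lowest one at 48 h. The difference between 48 and 96 h did not pass the test (log2 fold change -0.21, SE 0.11, adjusted p = 0.12), but did with upper-quartile scaling (-0.32, adjusted p = 0.022) and with total reads (-0.34, adjusted p = 0.011).

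*Mycn* was 2.98 times its 0 h mean at 48 h (log2 fold change 1.61, SE 0.11, adjusted p = 1.6e-13) and 2.57 times at 96 h (log2 fold change 1.39, SE 0.11, adjusted p = 2.9e-12). At 48 h the fold was 2.39 in replicates 1 and 2 and 3.89 in replicates 3 and 4, whose 0 h levels were lower. The dip at 16 h against 8 h had a log2 fold change of -0.48 (SE 0.11, adjusted p = 0.0031), but was not called with the replicate sets averaged (adjusted p = 0.22). It was to 0.603 times the 8 h level in replicates 1 and 2 and to 0.848 times in replicates 3 and 4. *Myc* over the same interval had 0.77 (SE 0.32, adjusted p = 0.11), which did not pass the test. The rise from 24 to 48 h was 0.99 (SE 0.11, adjusted p = 2.2e-08). At 2 h and 16 h against 0 h *Mycn* did not pass the test, and its direction differed between the sets, at 0.891 and 0.777 times the 0 h level in replicates 1 and 2, and 1.51 and 1.59 times in replicates 3 and 4. Leaving out replicate 1 or 2 at 0 h brought both past the threshold, with adjusted p values of 0.034 and 0.024 at 2 h and 0.077 and 0.058 at 16 h.

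*Mycl*, the paralogue with the weakest transforming activity (chr4:122995652-123002485, plus strand), fell at once. It had 221, 212, 112 and 86.9 normalized counts at 0 h and 28.1, 32.5, 21.1 and 18.9 at 2 h, and from 32.5 to 76.8 from 4 to 96 h. Every later sample was below every sample at 0 h. The level at 2 h was 0.159 of the 0 h mean (log2 fold change -2.53, SE 0.24, adjusted p = 1e-09). Part of it returned by 4 h (against 2 h, log2 fold change 0.96, SE 0.24, adjusted p = 0.005), which was not called with the replicate sets averaged (adjusted p = 0.19). At 48 h the level was 0.371 of the 0 h mean (log2 fold change -1.31, SE 0.24, adjusted p = 2.1e-05). At 0 h the sets differed by a ratio of 2.18, and the fall at 48 h was to 0.285 of the 0 h level in replicates 1 and 2 and to 0.558 in replicates 3 and 4.

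Per kilobase of merged exon, which allows levels of different genes to be compared, *Mycn* gave the largest share of the MYC genes at 6 of the 8 time points in every sample. The *Mycn* share of the sum of *Myc*, *Mycn* and *Mycl* was 69.2% ± 7.33 (SD, n = 4) at 0 h, against 40.1% ± 3.90 by 16 h and 89.4% ± 3.15 by 48 h. The *Myc* share was 16.1% ± 6.00 at 0 h, 56.9% ± 3.66 at 16 h and 8.07% ± 3.02 at 48 h. At 0 h it averaged 21.0% in replicates 1 and 2 and 11.2% in replicates 3 and 4. At 16 h *Myc* was above *Mycn* in all 4 samples, while at 2 h it was above *Mycn* in replicates 1 and 2 (shares of 56.4% and 54.3%) and below it in replicates 3 and 4 (36.9% and 40%).

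The share of *Mycl* went from 14.7% ± 2.02 at 0 h to 1.57% ± 0.201 at 2 h and was 2.90% ± 0.520 at 96 h. Together the 3 genes amounted to 122% ± 37.8 of *Max* per kilobase at 0 h and 307% ± 34.3 at 48 h. The sum of *Mxd1*, *Mxd3*, *Mxd4* and *Mxi1* amounted to 26.3% ± 3.75 and 78.6% ± 10.9. It left out *Mnt*, which had 56.1 ± 6.79 normalized counts per kilobase at 0 h and 78.1 ± 8.27 at 48 h. The sum itself was 55.5 ± 5.23 and 149 ± 11.2. *Mxd3* gave 18.4 and 51.6 of it, values that are uncertain because an exon overlaps one of *Prelid1*. For the MYC genes at 0 h the sets averaged 153% and 89.8%. These ratios to *Max* depend on the exon length: with the longest transcript of each gene they were 79.3% and 203% for the MYC genes and 19.7% and 63.4% for the MXD genes. The plot of shares shows the exchange of *Myc* and *Mycn* at 16 h.

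**Figure D3:**
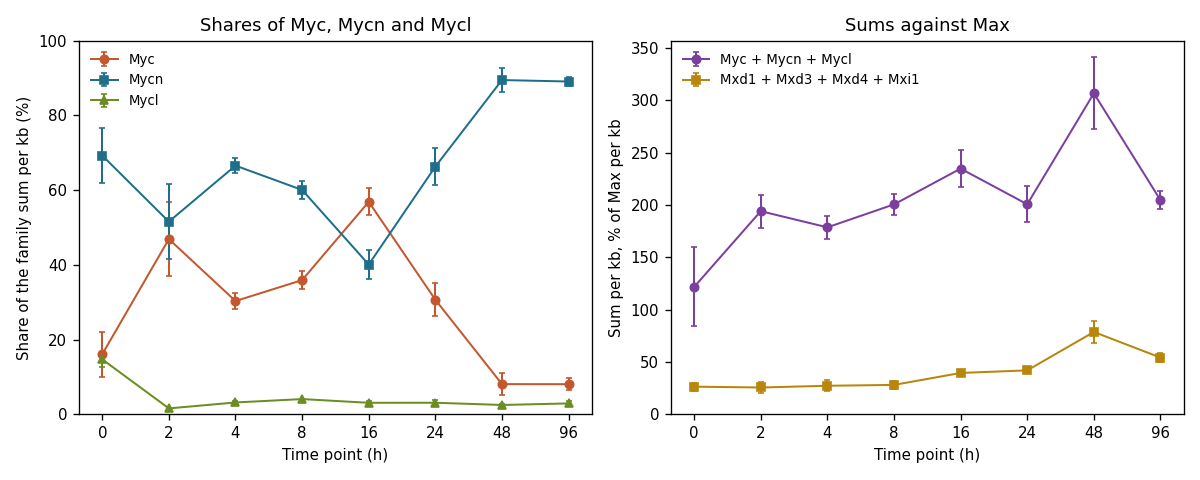
Left, share (%) of *Myc*, *Mycn* and *Mycl* in their sum per kilobase of merged exon. Right, the sum of the MYC genes and of *Mxd1*, *Mxd3*, *Mxd4* and *Mxi1* as % of *Max* per kilobase, both by time point as mean and SD of 4 samples. The mean share of *Myc* passes that of *Mycn* only at 16 h (56.9% against 40.1%), and the MXD sum is highest at 48 h (78.6% of *Max*).

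*Max*, the shared partner (chr12:76937269-76962201, minus strand, with the E-box across the start in RefSeq, upstream of these GENCODE bounds), rose between 48 and 96 h. Its normalized counts lay in the range of 609 to 916 in all 32 samples, with 762 ± 40.7 (SD, n = 4) at 0 h. At 48 h they were 693, 609, 727 and 728, which overlapped the 0 h samples (816, 769, 721 and 742). The difference had a log2 fold change of -0.15 (SE 0.07, adjusted p = 0.056), and it was no longer called without replicate 2 at 48 h (-0.09, adjusted p = 0.26) or without replicate 1 at 0 h (-0.11, adjusted p = 0.16). At 96 h, with 881, 874, 916 and 879, every sample was above those at 0 h (log2 fold change 0.22, SE 0.07, adjusted p = 0.0048). With total reads as scaling, however, the difference was -0.04 (adjusted p = 0.54) and with upper-quartile scaling 0.02 (adjusted p = 0.79), so a change of *Max* at 96 h against 0 h rested on the scaling. Between 48 and 96 h every sample was higher at the later time (log2 fold change 0.37, SE 0.07, adjusted p = 5e-05), also with the replicate sets averaged (adjusted p = 0.026). With total reads *Max* was also called at 2 h (-0.17) and 24 h (-0.14) against 0 h, at 4 h against 2 h (0.15) and at 48 h against 24 h (-0.14).

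*Mxd4*, which encodes the MXD protein found in differentiating and quiescent cells (chr5:34173883-34187720, minus strand, with an E-box 219 bases before its start), rose the most of the 10 genes. The 0 h samples had 4.14, 7.47, 15.3 and 7.55 normalized counts, from 3 to 19 reads. At 2 h there were 22.9, 16.6, 21.1 and 23.8 and at 24 h 54.0, 46.3, 85.3 and 63.6. The level then jumped to 306, 364, 347 and 339 at 48 h and stood at 256, 262, 290.0 and 268 at 96 h, and the samples of these times overlapped those of no other time point.

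In every sample from 2 h onwards *Mxd4* was above every sample at 0 h. Its log2 fold change was 1.31 (SE 0.25, adjusted p = 0.00012) at 2 h, 2.81 (SE 0.25, adjusted p = 9.7e-11) at 24 h and 5.26 (SE 0.25, adjusted p = 1.9e-17) at 48 h, when the mean was 39.3 times that at 0 h. Given the few reads at 0 h this fold is imprecise, at 57.7 in replicates 1 and 2 and 30.0 in replicates 3 and 4. Against 24 h, where reads were more numerous, the rise at 48 h was 5.44-fold (log2 fold change 2.46, SE 0.25, adjusted p = 3.4e-09). The lower level at 96 h than at 48 h had a log2 fold change of -0.33 (SE 0.25, adjusted p = 0.3) and did not pass the test.

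*Mxd1*, first known as a gene switched on when myeloid cells and keratinocytes differentiate (chr6:86647042-86669161, minus strand), showed an early pulse. Normalized counts were 44.2, 36.0, 54.0 and 58.6 at 0 h, 118, 109, 135 and 129.7 at 2 h. They were 78.1, 65.4, 68.2 and 75.4 at 4 h and 40.7 to 63.0 from 8 to 24 h. All samples at 2 h were above all others of the series. The pulse was 2.56-fold at 2 h (log2 fold change 1.35, SE 0.15, adjusted p = 3.2e-08). The fall from 2 to 4 h had a log2 fold change of -0.77 (SE 0.15, adjusted p = 0.00059), not called with the replicate sets averaged (adjusted p = 0.1). At 4 h every sample was still above those at 0 h (log2 fold change 0.59, SE 0.15, adjusted p = 0.0028), though replicates 3 and 4 alone gave no call (0.345, adjusted p = 0.1). By 8 h the difference from 0 h did not pass the test (0.25, adjusted p = 0.2). The later differences from 0 h, 0.41 (SE 0.15, adjusted p = 0.021) at 48 h and 0.36 (SE 0.15, adjusted p = 0.039) at 96 h, came from samples that overlapped those at 0 h. They were not called without replicate 2 at 0 h (0.28 and 0.23) or, at 96 h, without replicate 2 at 96 h (0.28). With upper-quartile scaling the 96 h value was 0.16 (adjusted p = 0.33), and with total reads the values were 0.27 at 48 h (adjusted p = 0.11) and 0.098 at 96 h (adjusted p = 0.57). The 96 h level was 1.63-fold in replicates 1 and 2 and 1.01-fold in replicates 3 and 4.

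*Mnt*, the widely expressed MAX partner that opposes MYC (chr11:74830920-74845725, plus strand, with an E-box 123 bases before its start), also had an early pulse and a later one. Counts were 226, 247, 265 and 300.3 at 0 h, 355, 359, 399.8 and 367 at 2 h. They were 244, 216, 288 and 292 at 4 h and 331, 326, 398 and 390.1 at 48 h. All samples at 2 h and 48 h were above those at 0 h. The log2 fold change against 0 h was 0.52 (SE 0.11, adjusted p = 0.00029) at 2 h and 0.48 (SE 0.11, adjusted p = 0.00027) at 48 h. Between these the level was near that at 0 h, with log2 fold changes from -0.16 to 0.09 that did not pass the test. From 48 to 96 h it fell by 0.64 on the log2 scale (SE 0.11, adjusted p = 1.3e-05). *Mnt* at 96 h was not called against 0 h (-0.16), but was called lower with upper-quartile scaling (-0.36) and with total reads (-0.43).

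*Mxd3*, linked to S phase in dividing cells (chr13:55325168-55329823, minus strand), was lower at 2 h and higher from 16 h on. It had 41.4, 41.4, 48.4 and 43.4 normalized counts at 0 h and 33.2, 15.9, 30.5 and 28.7 at 2 h, then 82.6, 103, 79.9 and 97.5 at 16 h and 98.0, 130.0, 144 and 117 at 48 h. The 2 h samples lay below and the 16 h and 48 h samples above all 0 h samples. The log2 fold change against 0 h was -0.72 (SE 0.18, adjusted p = 0.0022) at 2 h and 1.45 (SE 0.18, adjusted p = 3.3e-08) at 48 h. The difference at 8 h, 0.42 (SE 0.18, adjusted p = 0.061), was lost when replicate 1 or 2 at 0 h, or replicate 3 or 4 at 8 h, was left out (adjusted p from 0.11 to 0.15). Between 48 and 96 h the difference, -0.35 (SE 0.18, adjusted p = 0.11), did not pass the test, but did with upper-quartile scaling (-0.45) and with total reads (-0.48). An exon of *Mxd3* overlaps one of *Prelid1* on the opposite strand, and as the strand setting of the counting is not stated, *Mxd3* values are uncertain.

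*Mxi1*, also called Mxd2 (chr19:53310518-53375810, plus strand), followed a similar course of an early fall and a late rise. Counts were 186, 202, 227 and 183 at 0 h and 111, 122, 166 and 143 at 2 h. They were 342, 369, 303 and 318 at 48 h and 305, 285, 442 and 418 at 96 h. No 2 h sample reached the 0 h samples, and all 48 h and 96 h samples were above them. The log2 fold change was -0.57 (SE 0.12, adjusted p = 0.00049) at 2 h, 0.74 (SE 0.12, adjusted p = 5.1e-06) at 48 h and 0.84 (SE 0.12, adjusted p = 5.5e-07) at 96 h. At 4 h and 8 h it was not called against 0 h (-0.24 at both), but was with upper-quartile scaling and with total reads (-0.28 and -0.27, and -0.28 and -0.28). From 48 to 96 h the sets went apart, with 0.83 times the 48 h level in replicates 1 and 2 and 1.38 times in replicates 3 and 4.

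**Figure D4:**
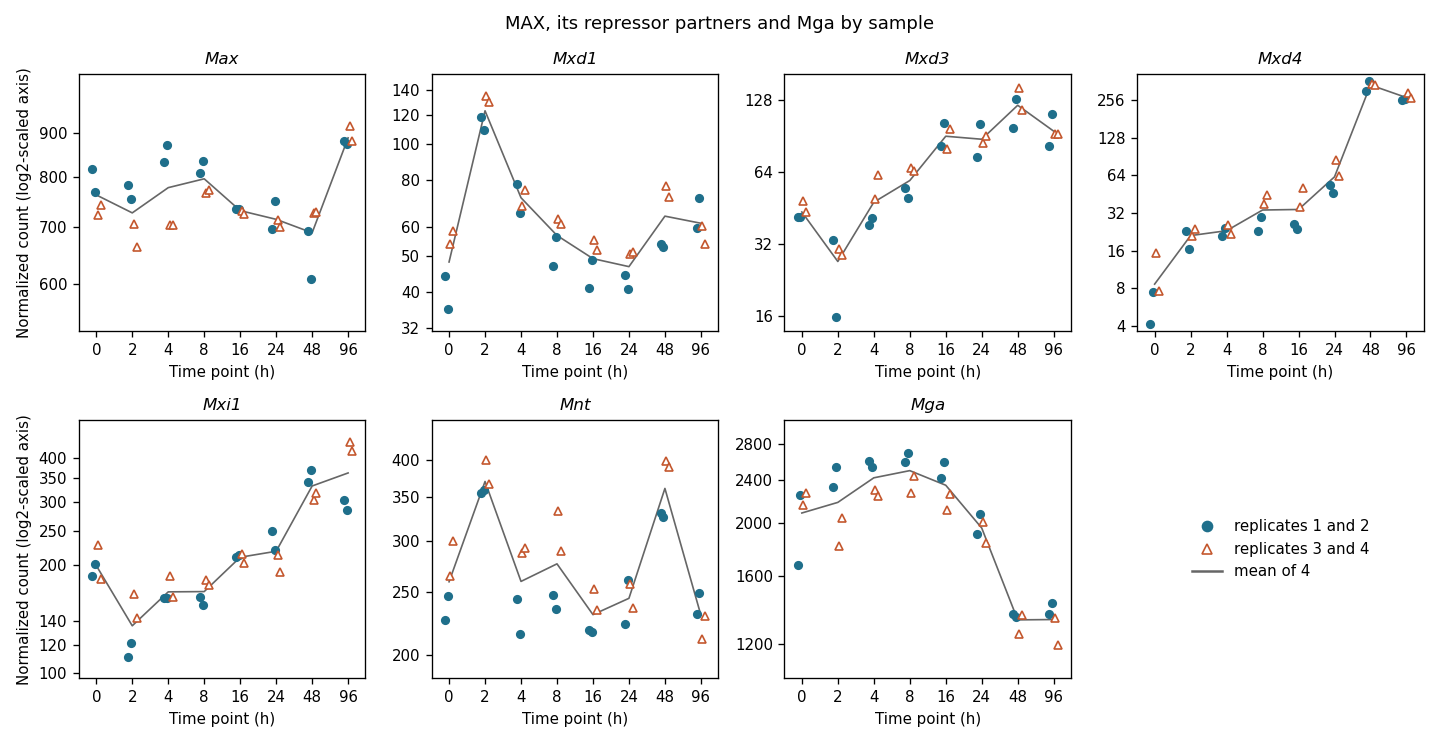
Normalized count (log2-scaled axis, a scale of its own in each panel) of *Max*, *Mxd1*, *Mxd3*, *Mxd4*, *Mxi1*, *Mnt* and *Mga* in each of the 32 samples, with the marks of the replicate sets and the mean of 4. *Mxd1* and *Mnt* are high at 2 h, *Mxd4* is at 85.3 or less until 24 h and at 306 to 364 at 48 h, and *Mga* falls to 1254 to 1360 at 48 h.

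*Mga*, the scaffold of PRC1.6 and a repressor of meiotic and germ cell genes (chr2:119897228-119969581, plus strand), was lower at 48 and 96 h than before. It had 1676, 2256, 2158 and 2270.3 normalized counts at 0 h, 2117 to 2691 from 4 to 16 h, then 1359.7, 1347, 1254 and 1355 at 48 h. The 96 h samples had 1361, 1429, 1339 and 1193. All samples at 48 and 96 h were below all earlier ones. The log2 fold change against 0 h was -0.64 (SE 0.09, adjusted p = 4.5e-07) at 48 h and -0.64 (SE 0.09, adjusted p = 3.6e-07) at 96 h. The fall from 24 to 48 h, -0.56 (SE 0.09, adjusted p = 9.7e-06), was of the same size in both sets (0.678 and 0.677 times). The higher level at 4 h had a log2 fold change of 0.22 (SE 0.09, adjusted p = 0.054) and that at 8 h one of 0.27 (SE 0.09, adjusted p = 0.021). Neither was called without replicate 1 at 0 h, the lowest of its group (0.12 and 0.16, adjusted p = 0.3 and 0.14), nor was the first without replicate 1 or 2 at 4 h (0.19 and 0.20), with upper-quartile scaling (0.19, adjusted p = 0.12) or with total reads (0.18, adjusted p = 0.14). At 2 h it was 1.24 times the 0 h level in replicates 1 and 2 and 0.873 times in replicates 3 and 4.

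The MLX arm of the network, in which MLX takes the place of MAX and pairs with the glucose sensors MLXIP and MLXIPL, has 3 genes. Of these, 2 were higher and 0 lower at 2 h against 0 h (22.2% and 22.6% of all genes). At 48 h 1 was higher and 1 lower (36.1% and 37.3%), with 0 lower when the replicate sets were averaged, and at 96 h 2 were higher and 1 lower (38.0% and 38.5%). *Mlx* had 362 ± 16.1 normalized counts (mean ± SD of 4) at 0 h and 393 ± 47.0 at 48 h (log2 fold change 0.11, SE 0.08, adjusted p = 0.2). It had 690.1 ± 39.5 at 96 h (log2 fold change 0.93, SE 0.08, adjusted p = 2.9e-12). *Mlxip* went from 251 ± 27 to 549 ± 24.6 at 48 h (log2 fold change 1.13, SE 0.09, adjusted p = 7.1e-12). *Mlxipl*, with 23.7 ± 16.2 at 0 h, had 2.50 ± 1.99 at 96 h (log2 fold change -2.80, SE 0.57, adjusted p = 7.2e-05), at very few reads.

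A list of 40 growth genes that MYC is known to bind held mainly genes for nucleolar proteins, nucleotide synthesis, chaperonins, translation and the cell cycle. It also held others, such as *Odc1*, *Srm*, *Ldha*, *Hk2*, *Tfrc* and *Tert*. Most of the 40 were called lower at 48 h. Against 0 h, 5 were higher and 4 lower at 2 h, beside 22.2% and 22.6% of all genes. At 16 h, when *Myc* was highest, 14 were higher and 9 lower, beside 28.0% and 25.3% of all genes. At 48 h 3 were higher and 33 lower, and at 96 h 6 were higher and 24 lower, beside 37.3% and 38.5% of all genes called lower. The median log2 fold change of the list at 2, 16, 48 and 96 h was 0.003, 0.15, -0.64 and -0.30, where that of all tested genes was -0.03, 0.01, -0.02 and -0.03. With upper-quartile scaling the 96 h median was -0.50 and 30 were lower, where all 15227 genes had a median of -0.22 and 7185 lower. With total reads the list had a median of -0.57 and 31 lower, where all genes had -0.29 and 7622 lower. On the authors' scaling the 96 h median of the list was -0.49 in replicates 1 and 2 and -0.12 in replicates 3 and 4, and 18 were lower with the replicate sets averaged.

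From 24 to 48 h 33 of the 40 fell and 3 rose, beside 27.8% and 29.8% of all genes, while *Myc* fell and *Mycn* rose. From 48 to 96 h 25 rose and 2 fell, beside 27.3% and 27.2% of all genes (median 0.37). With total reads as scaling the median of the list was 0.24, with 20 higher and 3 lower. For all 15227 genes it was then -0.12, with 2952 higher and 5258 lower. At 16 h against 0 h the median of the list was -0.02 in replicates 1 and 2 and 0.21 in replicates 3 and 4. At 24 h it was -0.17 and 0.13, and at 48 h -0.78 and -0.43. A link of these genes to the levels of *Myc* or *Mycn* was not tested.

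**Figure D5:**
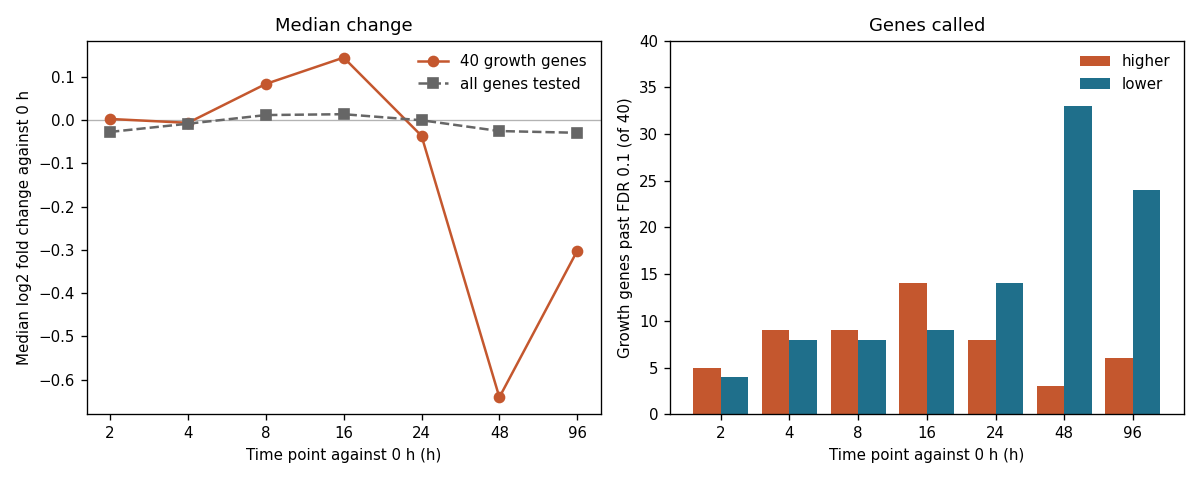
Left, median log2 fold change against 0 h of the 40 growth genes and of all 15227 genes tested, by time point. Right, number of the 40 called higher or lower (adjusted p below 0.1), with 33 lower at 48 h and 24 lower at 96 h.

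The largest falls among the growth genes at 48 h, in mean normalized counts ± SD of 4 samples, were in 2 genes. *Tfrc*, the transferrin receptor, fell from 3806 ± 189 to 717 ± 324 at 48 h (log2 fold change -2.52, SE 0.21, adjusted p = 5.2e-12). *Mthfd2*, a mitochondrial folate enzyme, fell from 1442 ± 308 to 279.8 ± 12.7 at 48 h (log2 fold change -2.34, SE 0.15, adjusted p = 3e-14). *Mthfd2* stood at 694 ± 38.2 at 96 h (log2 fold change -1.03, SE 0.15, adjusted p = 6.1e-07). *Ccnd2*, the gene for cyclin D2, had the largest rise, from 19.8 ± 14.4 at 0 h to 442 ± 79.6 at 48 h (log2 fold change 4.77, SE 0.53, adjusted p = 3.9e-09). *Ldha*, lactate dehydrogenase, rose from 5678 ± 1624 to 12638 ± 2295 at 48 h (log2 fold change 1.18, SE 0.21, adjusted p = 9.9e-06).

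Of 19 cofactors of MYC and MXD proteins, 2 were higher and 4 lower at 2 h against 0 h, beside 22.2% and 22.6% of all genes. At 48 h 4 were higher and 14 lower (36.1% and 37.3% of all genes, median -0.65), and at 96 h 4 were higher and 14 lower (38.0% and 38.5%). The 4 higher at 48 h became 2 with upper-quartile scaling or total reads and 1 with the replicate sets averaged. Of all 15227 genes, 4925 were higher at 48 h with upper-quartile scaling and 4725 with total reads, where the authors' scaling gave 5497. *Wdr5*, which anchors MYC to chromatin, fell from 4082 ± 206 to 1281 ± 60.1 at 48 h (log2 fold change -1.67, SE 0.06, adjusted p = 2.1e-21). *L3mbtl2*, a partner of MGA in PRC1.6, fell from 1369 ± 133 to 590.4 ± 28.5 at 48 h (log2 fold change -1.21, SE 0.10, adjusted p = 4.5e-12). *Sin3b*, a corepressor scaffold for MXD proteins, had the largest rise, from 1012 ± 77.1 to 1446 ± 65.8 at 48 h (log2 fold change 0.52, SE 0.08, adjusted p = 3.4e-06). At 16 h it had been lower than at 0 h, with 752 ± 31.9 (log2 fold change -0.43, SE 0.08, adjusted p = 0.00011). *Trrap*, a scaffold of histone acetylase complexes, had 1179.9 ± 246 at 0 h and 1599 ± 366 at 48 h (log2 fold change 0.44, SE 0.15, adjusted p = 0.013). Its mean was higher at 2 h, with 2091 ± 255 (log2 fold change 0.84, SE 0.15, adjusted p = 5.2e-05), and 1260 ± 113 at 16 h.

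Of 13 genes for MYC protein turnover and stability, 4 were higher and 1 lower at 2 h against 0 h, beside 22.2% and 22.6% of all genes. At 48 h 2 were higher and 6 lower, beside 36.1% and 37.3% of all genes (0 higher with upper-quartile scaling, with total reads or with the replicate sets averaged). Of all 15227 genes, 4925 were higher with upper-quartile scaling and 4725 with total reads. *Pim1*, a kinase that stabilizes MYC, fell from 247 ± 20.3 to 89.1 ± 25.7 at 48 h (log2 fold change -1.50, SE 0.15, adjusted p = 3.8e-10). *Usp28*, which removes ubiquitin from MYC, fell from 680.3 ± 91.4 to 350.4 ± 78.2 at 48 h (log2 fold change -0.97, SE 0.16, adjusted p = 2.7e-06). *Fbxo28*, a ubiquitin ligase subunit for MYC, rose from 357 ± 25.3 to 411 ± 19.2 at 48 h (log2 fold change 0.20, SE 0.07, adjusted p = 0.013). *Aurka*, the kinase that protects MYCN from degradation, rose from 1773 ± 139 to 1995 ± 170.1 at 48 h (log2 fold change 0.17, SE 0.07, adjusted p = 0.037).

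Time courses most like those of the leading genes were sought among 9963 genes by Pearson correlation of the 8 time point means, which share their libraries, so the values only describe likeness. For *Myc* these were *Spry4*, a feedback inhibitor of receptor tyrosine kinase signalling (r = 0.979), *Pkd2* (0.973) and *Dhx8* (0.973). At 0, 2, 4, 16 and 48 h *Spry4* averaged 266, 1239, 614, 1931 and 229.6 normalized counts. Its means were higher at 2 h and 16 h than at 4 h, as were those of *Myc*. For *Mycn* they were *Asah1* (0.979), *Mpp1* (0.978) and 1600012H06Rik (0.975). For *Mxd4* they were *Rbbp7* (0.995), *Mfap3* (0.994) and *Tnks* (0.993). Pearson r takes no account of the size of a change. From 0 to 48 h the means of *Rbbp7* went from 2997 to 5999, of *Mfap3* from 596 to 1064 and of *Tnks* from 918 to 2536. That of *Mxd4* went from 8.62 to 339.

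Ordered by mean level, few neighbouring time points could be separated for most genes. Samples of neighbours in the order did not overlap in 2 of 7 pairs for *Myc* (48 h below 4 h, and 2 h below 16 h), 3 of 7 for *Mycn*, *Mycl* and *Mxd4*, 2 of 7 for *Mxd3* and *Mxi1*, and 1 of 7 for *Max*, *Mxd1* and *Mga*. For *Mnt* all 7 pairs overlapped. The same count was not made over all tested genes, so these counts describe each gene alone.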

How the data were processed

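mRNA was sequenced from 32 samples, 4 at each of 8 time points. Per the submitters' processing notes, the tools were FastQC 0.11.8, cutadapt 2.7, HISAT2 2.1.0 and featureCounts of Subread 1.6.4 on GRCm38.p6. The deposited values are on a log2 scale: the authors applied the variance stabilizing transformation of DESeq2 to gene counts. Here that transformation was inverted, which gave whole reads for 100% of the values within 0.001 read, and normalized counts (reads divided by the authors' size factors). Reads per sample ranged from 3190108 to 12301732 (median 8870663). Counting error is only a part of the spread between replicates, and it weighs most where a gene had few reads.

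Genes that reached 10 normalized counts in 4 or more samples were tested with limma 3.58.1 in R 4.3.3 (moderated, trended, two-sided) on log2(normalized count + 1), so that fold changes of low genes are understated. All 32 samples entered the fit, without a replicate block, for 14 comparisons, with Benjamini-Hochberg adjustment over the 15227 genes of each and a threshold of 0.1. Each of the 32 libraries was left out in turn, and 13 other settings were tried (pseudocount, filter, scaling, block, samples in the fit, values without inversion, limma-voom, replicate sets). Folds are ratios of mean normalized counts. Levels of different genes were compared per kilobase of exon (GENCODE annotation of GRCm38). Same-numbered samples of different time points deviated from their group means with a mean correlation of 0.196 (-0.043 to 0.48, 112 pairs), the same as between differently numbered samples within a set (0.196), so replicate numbers were not taken as pairs. Scripts ran in Python 3.11.15 with numpy 2.4.6, pandas 2.3.3 and matplotlib 3.10.9, and were tested on simulated data.

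The members and gene lists were chosen with earlier results of these data known. Named were all 10 members, the 3 genes of the MLX arm, per other list the 2 largest rises and the 2 largest falls among genes called at 48 h against 0 h whose higher time point averaged 100 or more, and the 3 genes most like Myc, Mycn and Mxd4 over the time point means. Values of the lists under other settings were added after the data had been seen. The strand setting of the counting is not given in the sources used here.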

Additional observations from a re-analysis of the deposited data

Results flagged for a closer look

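Each gene was examined in each time point for a sample far from the other 3, by the ratio of its gap to the range (Dixon's test), in 80 groups of 4 samples. Chance marks about 1 group in 20, and 4 were marked. *Mycl* at 96 h was lowest in replicate 2, with 42.1 normalized counts against 62.8 to 66.8 in the others. *Max* at 96 h was highest in replicate 3, with 916 against 874 to 881. *Mxi1* at 4 h was highest in replicate 3, with 187 against 162 to 163. *Mga* at 48 h was lowest in replicate 3, with 1254 against 1347 to 1359.7.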

How the results depend on the processing

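Over the 140 log2 fold changes (10 genes, 14 comparisons) under 13 settings, 1651 values kept direction and side of the threshold, 77 passed it newly, 46 no longer passed it and 46 turned direction, 40 of these with no call before or after. With 1 library left out 1023 kept both, 18 passed newly, 28 no longer passed and 51, none of them called, turned direction. The cause of these changes was not tested. With upper-quartile scaling, the direction turned for *Max* (-0.012) at 4 h against 0 h, *Myc* (-0.12) at 96 h against 0 h, *Mxd4* (0.0087) at 16 h against 8 h and *Mxi1* (-0.0015) at 96 h against 48 h. With total reads, the direction turned for *Mga* (-0.0397) at 2 h against 0 h, *Max* (-0.021) at 4 h against 0 h, *Myc* (-0.18), *Max* (-0.043) at 96 h against 0 h and *Mxi1* (-0.0302) at 96 h against 48 h. With limma-voom, the direction turned for *Mnt* (0.055) at 4 h against 0 h, *Mxd1* (0.0029) at 24 h against 0 h, *Myc* (-0.042) at 96 h against 0 h, *Mxi1* (-0.0077) at 8 h against 4 h, *Mxd3* (0.0045) at 24 h against 16 h and *Mycl* (0.0028), *Mga* (0.0001) at 96 h against 48 h. With replicates 1 and 2 only, the direction turned for *Mycn* (-0.17) at 2 h against 0 h, *Mxd3* (-0.055) at 4 h against 0 h, *Mycn* (-0.36) at 16 h against 0 h, *Mxd1* (0.09), *Mnt* (0.033), *Mga* (0.036) at 24 h against 0 h, *Myc* (-0.16) at 48 h against 0 h, *Myc* (-0.64), *Mnt* (0.023) at 96 h against 0 h, *Mycn* (-0.0015), *Max* (-0.051), *Mxi1* (-0.0299) at 8 h against 4 h, *Mycl* (0.084) at 24 h against 16 h, *Mycl* (-0.058) at 48 h against 24 h and *Mxd1* (0.29), *Mxi1* (-0.27), *Mga* (0.044) at 96 h against 48 h. With replicates 3 and 4 only, the direction turned for *Mga* (-0.20) at 2 h against 0 h, *Max* (-0.058), *Mnt* (0.039) at 4 h against 0 h, *Mxd1* (-0.071), *Mga* (-0.015) at 16 h against 0 h, *Mxi1* (-0.014) at 24 h against 0 h, *Mxd4* (0.049) at 16 h against 8 h, *Mxi1* (-0.047) at 24 h against 16 h, *Max* (0.043) at 48 h against 24 h, *Myc* (0.17), *Mycl* (0.20) at 96 h against 48 h and *Max* (0.089), *Mnt* (0.042) at 48 h against 2 h. With the replicate sets averaged, which leaves 2 values per time point, 20 calls were lost, and 3 genes were higher at 8 h against 0 h, 1 changed at 4 h against 2 h, 0 at 16 h against 8 h and 0 at 24 h against 16 h. The share of all genes called in that setting was not computed. With total reads and with upper-quartile scaling, 2 genes were lower at 4 h and at 8 h against 0 h and 4 changed at 96 h against 48 h, and total reads gave 2 lower at 24 h. With only the time points compared in the fit, 2 were lower at 8 h, 2 changed at 8 h against 4 h, 5 at 16 h against 8 h and 5 at 96 h against 48 h, and limma-voom gave 2, 0, 5 and 5. Replicates 1 and 2 alone gave 2 lower at 4, 8 and 16 h, 1 changed at 8 h against 4 h and 5 at 96 h against 48 h. Replicates 3 and 4 alone gave 3 higher at 4 h, 2 lower at 16 h, 3 lower at 24 h, 3 changed at 8 h against 4 h and 6 at 96 h against 48 h. The replicate number as a block, which is no pairing here, gave 10 calls more and lost 0, with 2 lower at 4 h and 8 h, 2 changed at 8 h against 4 h and 5 at 16 h against 8 h.

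With single libraries left out, the log2 fold changes that turned direction ranged over *Mga* -0.039 to 0.15 at 2 h against 0 h, *Max* -0.034 to 0.069, *Mxd3* -0.022 to 0.20, *Mnt* -0.065 to 0.084 at 4 h against 0 h, *Mnt* -0.009 to 0.16 at 8 h against 0 h, *Mxd1* -0.084 to 0.14 at 16 h against 0 h, *Mxd1* -0.15 to 0.077 at 24 h against 0 h, *Myc* -0.086 to 0.60 at 48 h against 0 h, *Myc* -0.24 to 0.45 at 96 h against 0 h, *Max* -0.006 to 0.096, *Mxi1* -0.034 to 0.053, *Mnt* -0.0075 to 0.16 at 8 h against 4 h, *Mxd4* -0.21 to 0.14 at 16 h against 8 h, *Mxd3* -0.12 to 0.034, *Mxi1* -0.016 to 0.11 at 24 h against 16 h, *Max* -0.082 to 0.0034 at 48 h against 24 h, *Myc* -0.34 to 0.035, *Mycl* -0.071 to 0.15, *Mxd1* -0.13 to 0.048, *Mxi1* -0.0052 to 0.20, *Mga* -0.036 to 0.051 at 96 h against 48 h and *Mnt* -0.089 to 0.0074 at 48 h against 2 h. Higher genes against 0 h numbered 4 to 5 at 2 h, 4 to 5 at 4 h, 3 to 6 at 8 h (3 without replicate 1 at 0 h), 3 to 5 at 16 h (5 without replicate 2 at 0 h), 4 at 24 h, 6 at 48 h and 5 to 6 at 96 h. Lower genes numbered 3 at 2 h, 1 to 2 at 4 h (2 without replicate 4 at 0 h or replicate 3 at 4 h), 1 at 8 and 16 h, 1 to 2 at 24 h (2 without replicate 1 at 0 h), 2 to 3 at 48 h and 2 to 3 at 96 h. Changed genes numbered 5 to 6 at 4 h against 2 h, 0 at 8 h against 4 h, 2 to 3 at 16 h against 8 h, 3 to 4 at 24 h against 16 h, 7 to 8 at 48 h against 24 h and 2 to 3 at 96 h against 48 h, and at 48 h against 2 h 5 were higher and 3 lower throughout. *Mxd4* at 0 h rested on 3 to 19 reads per sample, which limits its fold.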

Other observations

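Across the 8 time point means, which share their libraries and are given as a description, *Mycn* ran with *Mxd4* (Pearson r = 0.948) and with *Mxi1* (0.794) and against *Mga* (-0.829). *Myc* ran with *Mga* (0.739), and *Mycl* against *Mxd1* (-0.754).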
